A study of Mus musculus with 12 samples.

Results

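The levels of 40 genes of mitosis and DNA replication were measured by RNA-seq in the mouse brainstem, out of 55418 genes in the count table. The members were taken by symbol and include the cohesion factor *Cdca5* (cell division cycle associated 5, also called sororin) and the kinase *Melk* (maternal embryonic leucine zipper kinase). *Cdca5* and *Melk* were already known to differ between morphine and saline mice in the sex-combined comparison when the set was drawn up around them, so all treatment values of the members are a description and not a test. The other 38 are proliferation genes, and all are sorted here into 10 classes by role. All 40 were expressed highly enough to be tested in all 5 comparisons described below.

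The mice were outbred CFW (Swiss Webster) pups, which differ from each other genetically. Pups received subcutaneous morphine at 15 mg/kg, or saline, each morning and afternoon from postnatal day 1 (P1) to P14, with both treatments given within litters. The brainstem (medulla and pons) was taken on P15, the morning after the last injection, when the morphine mice were in spontaneous withdrawal. Each treatment had 3 females and 3 males, with 1 library per mouse, and the labels do not give the dam of any mouse. The extraction text in the labels names spinal cord, but *Hox* genes of the thoracic and lumbar cord summed to between 0.0296 and 0.585 CPM (counts scaled to library size) in every library, while hindbrain genes summed to between 519 and 702 CPM. Library totals lay between 27850565 and 48097947 counts, and the members held between 3983 and 6031 of them. In the library labelled morphine male 6, *Xist*, the RNA of the inactive X chromosome, was at 380.4 CPM, against 0.399 to 2.65 CPM in the other males and 550.4 to 978.7 CPM in females, and the Y-linked *Ddx3y* was at 12.8 CPM, against 114.9 to 199.1 CPM in the other males. The library was kept in its labelled group, and results that change without it are given below.

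A dividing cell first copies its DNA and then parts the copies. Before S phase the MCM proteins load onto DNA as the ring of the replicative helicase, PCNA clamps the polymerases to the template, and ribonucleotide reductase and thymidylate synthase supply deoxynucleotides. Cohesin then holds the sister chromatids together until cyclin B and CDK1 drive mitosis, spindle motors and kinetochores align the chromosomes, and the anaphase-promoting complex with CDC20 triggers their separation. Most of these genes are transcribed mainly in cycling cells, and in bulk tissue they are commonly read as markers of proliferation. In the postnatal brainstem the cycling cells are largely glial precursors, while neurons have left the cell cycle. In bulk samples, fewer cycling cells and less RNA per cycling cell cannot be told apart.

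Many of these genes share a promoter code, which is why their promoters are shown. The cell cycle homology region (CHR; TTTGAA or TTCGAA) and the CCAAT box (CCAAT) are the elements through which the DREAM and B-MYB-FOXM1 complexes and NF-Y time mitotic genes. E2F sites (here TTTCCCGC, TTTCGCGC, TTTGCCGC or TTTGGCGC) time replication genes. RefSeq promoter windows of 300 bases on GRCm38.p6, from 250 before to 50 after the annotated start, were found for 34 of the 40 members (36 windows) and searched on both strands. A CHR was in 66.7% of the members' windows and in 19.2% of all 32851 windows. A CCAAT box was in 83.3% against 37.4%, both elements together were in 61.1% against 7.52%, and an E2F site was in 13.9% against 2.26%. In 121 windows of 100 other cell cycle genes the shares were 42.1% for the CHR, 53.7% for the CCAAT box and 24.0% for E2F. The E2F letters were found in *Mcm3*, *Mcm5*, *Mcm6*, *Mcm7* and *Cdk1*, and 4 members (*Birc5*, *Tyms*, *Melk* and *Nusap1*) held none of the searched letters. E2F matches can overlap each other, as they do in *Mcm6*. The 120 bases before the start follow, 5' to 3' on the gene's strand, with motif matches in capitals. They are given for *Cdca5* and *Melk*, the replication genes *Mcm6* and *Pcna*, and the mitotic genes *Cdc20* and *Ccnb2*. Matches elsewhere in the windows, such as CHR copies after the start, are not shown.
Cdca5: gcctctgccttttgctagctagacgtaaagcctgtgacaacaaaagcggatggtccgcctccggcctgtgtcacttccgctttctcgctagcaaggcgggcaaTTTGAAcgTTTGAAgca
Melk: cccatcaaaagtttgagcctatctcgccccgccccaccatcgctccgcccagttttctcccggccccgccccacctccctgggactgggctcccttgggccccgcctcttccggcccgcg
Mcm6: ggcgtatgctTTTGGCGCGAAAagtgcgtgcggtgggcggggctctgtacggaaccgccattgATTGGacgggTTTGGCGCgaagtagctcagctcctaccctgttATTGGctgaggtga
Pcna: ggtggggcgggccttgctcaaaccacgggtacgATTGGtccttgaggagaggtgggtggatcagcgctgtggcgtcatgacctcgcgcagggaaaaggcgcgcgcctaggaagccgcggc
Cdc20: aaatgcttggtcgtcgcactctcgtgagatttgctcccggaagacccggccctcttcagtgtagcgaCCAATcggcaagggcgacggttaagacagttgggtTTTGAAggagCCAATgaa
Ccnb2: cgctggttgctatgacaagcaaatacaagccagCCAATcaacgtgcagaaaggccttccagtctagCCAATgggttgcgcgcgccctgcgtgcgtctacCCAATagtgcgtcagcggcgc
The stretches are chr19:6084977-6085096 for *Cdca5* and chr4:44300797-44300916 for *Melk*, both on the plus strand. Those on the minus strand are chr1:128359706-128359825 for *Mcm6*, chr2:132253181-132253300 for *Pcna*, chr4:118437344-118437463 for *Cdc20* and chr9:70421555-70421674 for *Ccnb2*. *Cdca5* has 2 CHR copies just before its RefSeq start and no CCAAT box. For *Cdca5* and *Melk* the RefSeq start lies downstream of the gene start given below, which comes from GENCODE. Most of the *Cdca5* stretch therefore lies within that gene span. *Melk* has no match, *Mcm6* has 3 E2F matches and 2 CCAAT boxes, and *Cdc20* has a CHR between 2 CCAAT boxes. These are matches of letters and say nothing of which factor is bound. The sex-combined log2 difference described below had a median of 0.02 in the 23 members with a CHR and 0.06 in the 11 without, of 0.01 in the 28 with a CCAAT box and 0.15 in the 6 without, and of 0.11 in the 5 members with an E2F match and 0.01 in the 29 without.

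Per length, nearly all members were weakly expressed at this age. In saline mice the median of the members was 0.50 CPM per kb of exon, against 3.15 over all 18608 genes tested, and 39 of the 40 lay below that median. *Pcna* was the exception at 12.9 CPM per kb (percentile 80.8 of all tested genes). The next member, the helicase subunit *Mcm7*, was at percentile 43.4, and the lowest, the cohesin acetyltransferase *Esco2*, was at percentile 4.96. *Cdca5* (0.200 CPM per kb) and *Melk* (0.225 CPM per kb) ranked 37 and 35 of 40. In the plot of levels by role, *Pcna* stands apart from every other member, and both cohesion genes lie at the low end.

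**Figure D1:**
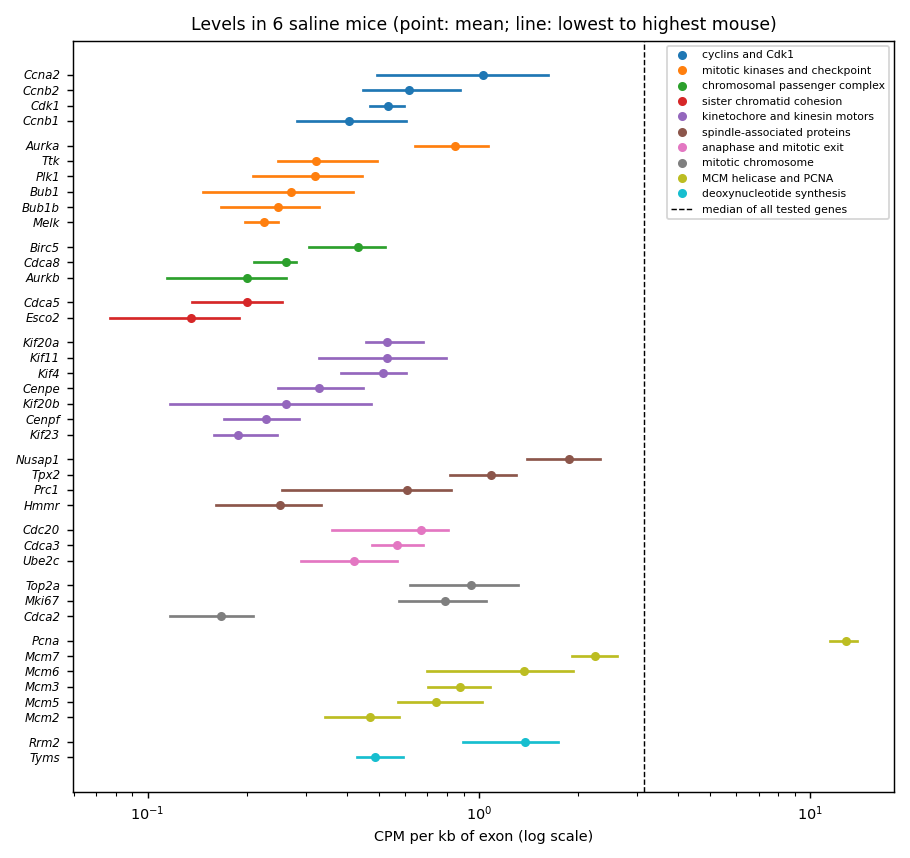
Mean level of each member in the 6 saline mice, in CPM per kb of exon on a log axis, with a line from the lowest to the highest mouse and colours for the 10 roles. *Pcna* alone lies right of the dashed line, which marks the median of all tested genes (3.15).

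The highest member of each role gives the scale of the classes, all as saline means per kb. Among cyclins and Cdk1 it was *Ccna2*, the cyclin of S phase and early mitosis (1.03 CPM per kb), and among mitotic kinases and checkpoint genes *Aurka*, the centrosome kinase (0.845). The chromosomal passenger complex was led by *Birc5*, which encodes survivin (0.430), and kinetochore and motor genes by *Kif20a*, a kinesin of cytokinesis (0.529). The spindle-associated *Nusap1* reached 1.87 CPM per kb, the highest of any mitotic gene listed. *Cdc20*, the activator of the anaphase-promoting complex, was at 0.667, *Top2a*, the topoisomerase that untangles sister chromatids, at 0.945, and *Rrm2*, the S-phase subunit of ribonucleotide reductase, at 1.38. The lowest members of the classes lay between 0.136 CPM per kb (*Esco2*) and 0.485 CPM per kb (*Tyms*).

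*Cdca5* protects cohesin on replicated chromosomes until mitosis. It lies on chromosome 19 from 6084983 to 6091777 (GRCm38, plus strand), and its level was low, from 10 to 21 reads per saline library and from 20 to 34 per morphine library. It was at 0.415, 0.448 and 0.399 CPM in saline males 1, 2 and 3, and at 0.291, 0.459 and 0.542 CPM in saline females 4, 5 and 6. Morphine females 1, 2 and 3 had 1.05, 0.667 and 1.11 CPM, and morphine males 4, 5 and 6 had 0.928, 0.658 and 0.621 CPM. All 6 morphine mice were above all 6 saline mice, the gap being narrowest between morphine male 6 (0.621) and saline female 6 (0.542). The mean was 0.838 ± 0.216 CPM (SD, n = 6) under morphine and 0.426 ± 0.0828 CPM (SD, n = 6) under saline. On the log2 scale the sex-combined difference was 0.96 (standard error (SE) 0.23), the largest of the 40. Leaving out 1 mouse moved it between 0.84, without saline female 4, and 1.03, without morphine female 2. Its cohesion partner *Esco2*, which acetylates cohesin so that CDCA5 can act, was at 0.902 ± 0.273 CPM in saline and 1.06 ± 0.284 CPM in morphine mice (SD, n = 6), with overlapping ranges.

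*Melk* encodes a kinase of proliferating and progenitor cells. It lies on chromosome 4 from 44300876 to 44364675 (GRCm38, plus strand) and had 19 to 39 reads per library. Saline males 1, 2 and 3 had 0.623, 0.662 and 0.583 CPM and saline females 4, 5 and 6 had 0.727, 0.734 and 0.685 CPM. In morphine females 1, 2 and 3 it was at 1.11, 0.957 and 1.03 CPM, and in morphine males 4, 5 and 6 at 1.02, 0.954 and 1.15 CPM. The groups again did not overlap, and within each treatment the mice were close together. The mean was 0.669 ± 0.0589 CPM in saline and 1.04 ± 0.0803 CPM in morphine mice (SD, n = 6), a log2 difference of 0.63 (SE 0.15). Its spread over mice, a coefficient of variation (CV) of 8.81% in saline and 7.74% in morphine mice, was 0.43 and 0.45 times that of read counting alone (20.4% and 17.4%), so the mice lay closer together than read counting alone would usually place them. Over the 12 fits without 1 mouse, its log2 difference lay between 0.59 and 0.67. Both *Cdca5* and *Melk* are among the 7 genes of 18608 (0.0376%) whose treatment groups did not overlap. Since this contrast was known when the set was drawn up, nothing is read from that.

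**Figure D2:**
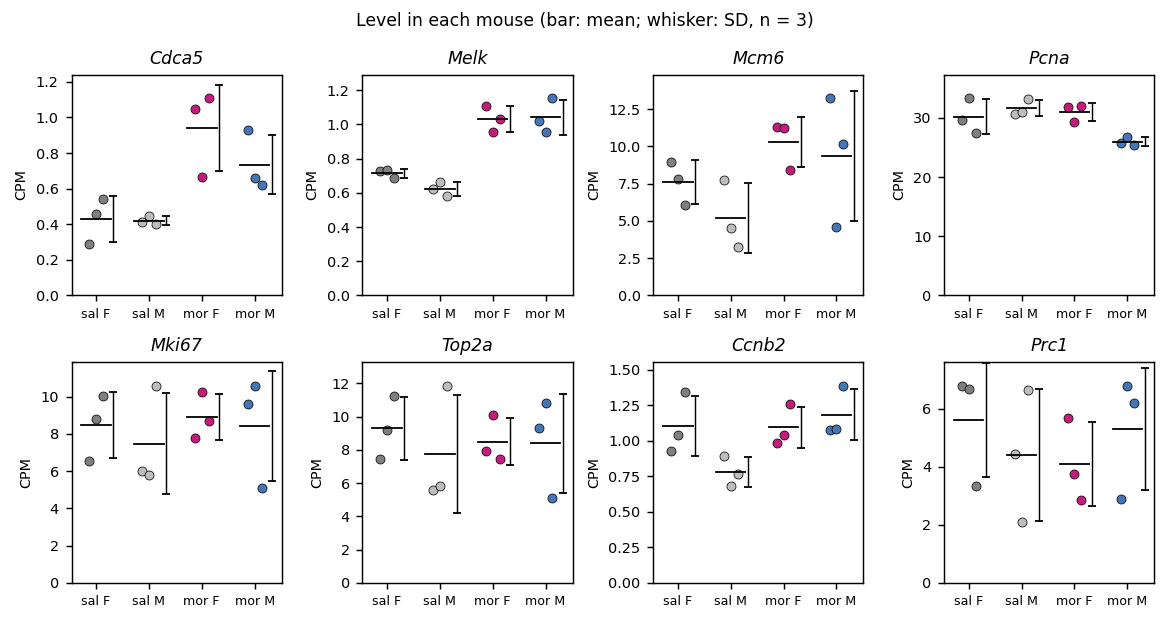
CPM of 8 members in each of the 12 mice (sal, saline; mor, morphine; F, females; M, males), with each group's mean as a bar and its SD as a whisker (n = 3). *Cdca5* and *Melk* are above every saline mouse in all 6 morphine mice, while *Mki67*, *Top2a* and *Prc1* overlap fully between treatments.

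In the sex-combined comparison, 3 of the 40 members had an unadjusted p under 0.05 and a log2 difference beyond 0.26 in either direction, the threshold for differentially expressed (DE) genes used by the study. They were *Cdca5*, *Melk* and *Mcm6*. Of all genes, 1.19% met the same rule. The adjusted p of all 3 was 1.00 by edgeR's quasi-likelihood test with Benjamini-Hochberg adjustment. Of the 40, 24 were higher and 16 lower in morphine mice, 33 were within 0.26 of 0, and the median log2 difference was 0.02, against -0.02 over all genes. With scaling by total counts, 31 were higher and 9 lower, and the median was 0.07 against 0.03 for all genes; with DESeq2 size factors, 21 were higher and 19 lower. Without morphine male 6, *Cdca5* (1.02) and *Melk* (0.59) met the rule and *Mcm6* (0.59) did not. The plot of changes by role shows *Cdca5*, *Melk* and *Mcm6* to the right of the other members of their classes.

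**Figure D3:**
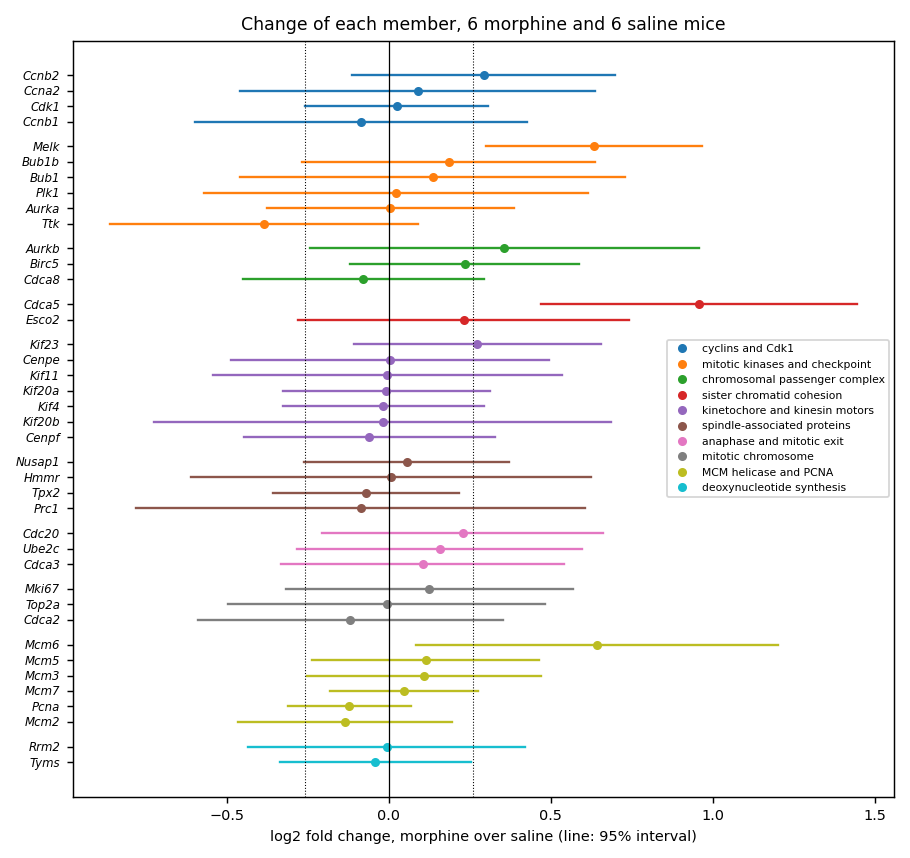
Log2 fold change of morphine over saline for each member (point) with its 95% interval (line), over 6 and 6 mice, grouped and coloured by role, with dotted lines at the threshold of 0.26. *Cdca5* (0.96), *Mcm6* (0.64) and *Melk* (0.63) lie to the right, and 33 of 40 points are between the dotted lines.

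Among the replication genes, *Mcm6* met the DE rule and the other 7 did not. *Mcm6*, a subunit of the MCM helicase, was at 7.77, 4.55 and 3.25 CPM in saline males 1, 2 and 3 and at 8.98, 7.80 and 6.05 CPM in saline females 4, 5 and 6. Morphine females 1, 2 and 3 had 11.3, 11.2 and 8.39 CPM and morphine males 4, 5 and 6 had 13.2, 4.61 and 10.2 CPM. The groups overlapped through morphine male 5 and through morphine female 3, which was below saline female 4. Its log2 difference was 0.64 (SE 0.26), and it no longer met the DE rule in 6 of the 12 fits without 1 mouse (saline male 2 or 3, saline female 6, morphine female 1, morphine male 4 or 6), with values from 0.47 to 0.62. *Mcm6* also varied between mice of the same treatment 5.14 times (saline) and 5.46 times (morphine) as much as read counting alone gives. The other subunits of the same hexamer, *Mcm2* (-0.14, SE 0.15), *Mcm3* (0.11, SE 0.17), *Mcm5* (0.11, SE 0.16) and *Mcm7* (0.05, SE 0.11), lay near 0. *Pcna*, the best measured member, was at 30.9 ± 2.21 CPM in saline and 28.5 ± 2.97 CPM in morphine mice (SD, n = 6), a log2 difference of -0.12 with a 95% interval from -0.31 to 0.07. *Rrm2* (-0.01, SE 0.20) and *Tyms* (-0.04, SE 0.14), which supply deoxynucleotides, were also close to 0.

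Mitotic genes other than *Cdca5* and *Melk* were spread around 0 as well. Among cyclins and Cdk1, *Ccnb2*, a B-type cyclin, differed most (0.29, SE 0.19), with 0.942 ± 0.232 CPM in saline and 1.14 ± 0.152 CPM in morphine mice (SD, n = 6), and *Cdk1* itself was at 0.02 (SE 0.13). Of the kinases and checkpoint genes, *Ttk*, which encodes the checkpoint kinase MPS1, had the lowest value of all members, -0.38 (SE 0.22). Its saline mice had 1.59 ± 0.473 CPM and its morphine mice 1.21 ± 0.283 CPM (SD, n = 6), and it met the DE rule in 1 of the 12 fits without 1 mouse, that without morphine female 2 (-0.51). The chromosomal passenger kinase *Aurkb* was at 0.36 (SE 0.28) and its partner *Birc5* at 0.23 (SE 0.16). *Kif23*, a kinesin of the central spindle, was at 0.27 (SE 0.18), *Prc1*, which bundles the midzone microtubules, at -0.09 (SE 0.32), and *Cdc20* at 0.23 (SE 0.20). *Ccna2* (0.09, SE 0.25), *Aurka* (0.01, SE 0.18), *Kif20a* (-0.01, SE 0.15) and *Nusap1* (0.06, SE 0.15), the highest members of their classes per kb, lay closer to 0. Saline and morphine mice overlapped for each of these genes, as they did for all 38 members other than *Cdca5* and *Melk*. By class, 3 of 3 anaphase and mitotic exit genes and 5 of 6 mitotic kinase and checkpoint genes were higher in morphine mice. Kinetochore and motor genes gave 2 of 7, which became 6 of 7 with scaling by total counts. Over all genes 7926 of 18608 were higher. Some of these signs rest on values close to 0, such as *Aurka* (0.005), *Plk1* (0.02), *Kif11* (-0.005) and *Kif20a* (-0.008).

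The usual proliferation markers were close to level. *Mki67*, which encodes the chromosome-coating protein Ki-67, was at 6.02, 5.78 and 10.6 CPM in saline males 1, 2 and 3 and at 6.54, 8.78 and 10.0 CPM in saline females 4, 5 and 6. Morphine females 1, 2 and 3 had 7.79, 10.2 and 8.68 CPM, and morphine males 4, 5 and 6 had 9.58, 10.6 and 5.08 CPM. The lowest of the 12 mice was morphine male 6, whose library carried both *Xist* and low *Ddx3y* RNA, and the next was saline male 2. The other morphine mice lay between 7.79 and 10.6 CPM, and the saline mice between 5.78 and 10.6 CPM. The log2 difference was 0.13, with a 95% interval from -0.32 to 0.57. *Top2a* gave -0.01, with an interval from -0.50 to 0.48. Changes of a size within these intervals are not excluded with 6 mice a group.

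Taken by sex, morphine and saline mice were compared with 3 against 3. In females, *Cdca5* (1.10, SE 0.38) and *Mcm6* (0.43, SE 0.18) met the DE rule, 2 of 40 where 1.81% of all genes did. *Cdca5* no longer met it without saline female 4 (0.88), morphine female 1 (1.02) or morphine female 3 (0.98), and *Mcm6* no longer met it without saline female 5 (0.45), saline female 6 (0.30), morphine female 1 (0.36) or morphine female 2 (0.37). With the contrast taken from the fit of all 12 mice, *Mcm6* (0.44) did not meet it and *Melk* (0.53) did. *Prc1* (-0.45, SE 0.31) did not meet the rule in females, but did as lower without saline female 6 (-0.71), without morphine female 1 (-0.76) and with no filter on low counts (-0.45). In males, *Cdca5* (0.77, SE 0.29) and *Melk* (0.71, SE 0.24) were higher and *Pcna* (-0.31, SE 0.13) was lower, 3 of 40 where 2.99% of all genes met the rule. *Pcna* was at 30.7, 31.0 and 33.3 CPM in saline males 1, 2 and 3 and at 25.7, 26.8 and 25.4 CPM in morphine males 4, 5 and 6, but it no longer met the rule in any of the 6 fits without 1 male (-0.34 to -0.24). Nor did it with scaling by total counts (-0.19), DESeq2 size factors (-0.29), DESeq2, edgeR's exactTest or no filter on low counts. It did with a minimum of 10 counts in every library (-0.31) and with an offset for GC content (-0.33). The contrast from the fit of all 12 mice also met the rule (-0.29). *Melk* failed the rule without saline male 1 (0.70), morphine male 4 (0.73) or morphine male 6 (0.62). *Cdca5* failed it without saline male 1 (0.75), 2 (0.82) or 3 (0.77), or morphine male 4 (0.57). These are the same libraries as in the sex-combined comparison and add no independent evidence. In males, *Ccnb2* (0.58, SE 0.25) and *Mcm6* (0.82, SE 0.46) did not meet the rule, but *Ccnb2* did with scaling by total counts (0.70), with DESeq2 size factors (0.60) and with a minimum of 10 counts in every library (0.59). *Mcm6* met it in males without saline male 1 (1.22) or morphine male 5 (1.2). *Ccna2* met it without saline male 3 (0.77), in a fit in which far more of all genes did. Scaling by total counts moved the median of all genes in males from -0.06 to 0.06 and that of the members from 0.03 to 0.15. Across the 40, 12 were higher in both sexes, 6 lower in both and 22 in opposite directions.

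**Figure D4:**
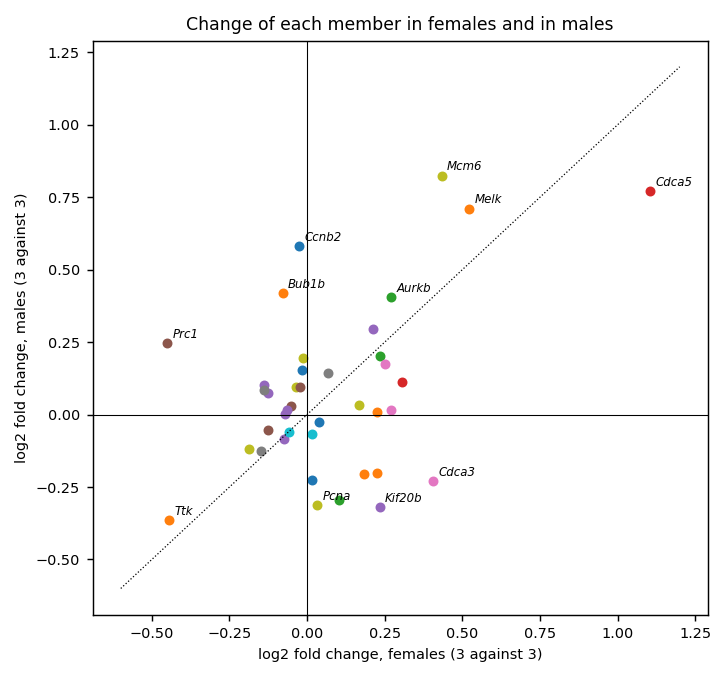
Log2 fold change of each member in females (x axis) and in males (y axis), 3 morphine against 3 saline mice in each, coloured by role, with a dotted line of equality. *Cdca5*, *Melk* and *Mcm6* are in the upper right, and 22 of 40 members lie in the quadrants of opposite direction.

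The difference between the sexes in the change under morphine, which is balanced against the sex-combined comparison, was tested as an interaction (change in males minus change in females). By edgeR's quasi-likelihood test, 0 of 40 members met the DE rule, and 0 had an unadjusted p under 0.05, against 2.94% of all genes meeting the rule. The smallest p was that of *Pcna* (-0.33, SE 0.16, adjusted p = 0.985 by edgeR with Benjamini-Hochberg adjustment), which met the rule with DESeq2 (-0.35), with DESeq2 size factors in edgeR (-0.35), without saline male 3 (-0.31) and without saline female 5 (-0.43). In the fit without saline male 3, far more of all genes met the rule. The largest values were those of *Prc1* (0.72, SE 0.63), *Ccnb2* (0.62, SE 0.35) and *Cdca3*, a mitotic entry factor (-0.62, SE 0.38), and *Cdca3* met the rule without morphine male 4 (-0.89). For *Cdca5* the interaction was -0.32, with a 95% interval from -1.33 to 0.69, and for *Melk* 0.21, with an interval from -0.49 to 0.90. The intervals are wide, and differences between the sexes up to those bounds are not excluded.

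Males were also compared with females over both treatments. Again 0 of 40 members met the DE rule and 0 had an unadjusted p under 0.05 by edgeR's quasi-likelihood test, where 3.94% of all genes met the rule. *Esco2* had the smallest p (-0.35, SE 0.24, adjusted p = 0.734 by edgeR). *Cdca5* was at -0.20 (SE 0.23) and *Melk* at -0.09 (SE 0.19). The median of the members was -0.08, against -0.01 over all genes, and 24 of the 40 were lower in males. Without saline male 3, *Mcm2* (0.31) and *Mcm5* (0.33) met the rule, in a fit in which 3947 of all genes did.

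Part of the variation between mice ran along the base composition of the members. The median member varied over saline mice 1.90 times as much as read counting alone gives, and over morphine mice 1.49 times, with *Top2a* (5.47 times), *Prc1* (5.29 times) and *Mcm6* (5.14 times) at the top in saline mice. In saline male 3, members with low GC content in their longest transcript were high and those with high GC content were low. The correlation across the 40 genes of their deviation with GC content was -0.69 there, and -0.59 in saline female 6. It was 0.70 in saline male 2 and 0.43 in saline male 1. Over all tested genes the same libraries gave -0.72, -0.57, 0.71 and 0.63. These are correlations across genes within a library, whose points share depth and normalization. The 19 members of the low-GC group other than *Pcna* accordingly summed to 85.4 CPM in saline male 3 and 49.3 CPM in saline male 2, and to 56.0 CPM in morphine male 6. The 20 members of high GC content varied less, from 41.8 to 52.5 CPM over all 12 libraries. *Top2a*, *Mki67*, *Kif11* and *Ccna2* were above their 12-mouse mean in saline male 3 and saline female 6 and below it in saline males 1 and 2. With an offset for GC content, added after seeing the data, the sex-combined log2 differences were 0.95 for *Cdca5*, 0.63 for *Melk* and 0.63 for *Mcm6*. Without it they were 0.96, 0.63 and 0.64. In males, *Ccnb2* (0.57) met the DE rule with the offset and *Pcna* (-0.33) still did. Beyond these fits, the part of base composition in the members' treatment values was not tested.

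**Figure D5:**
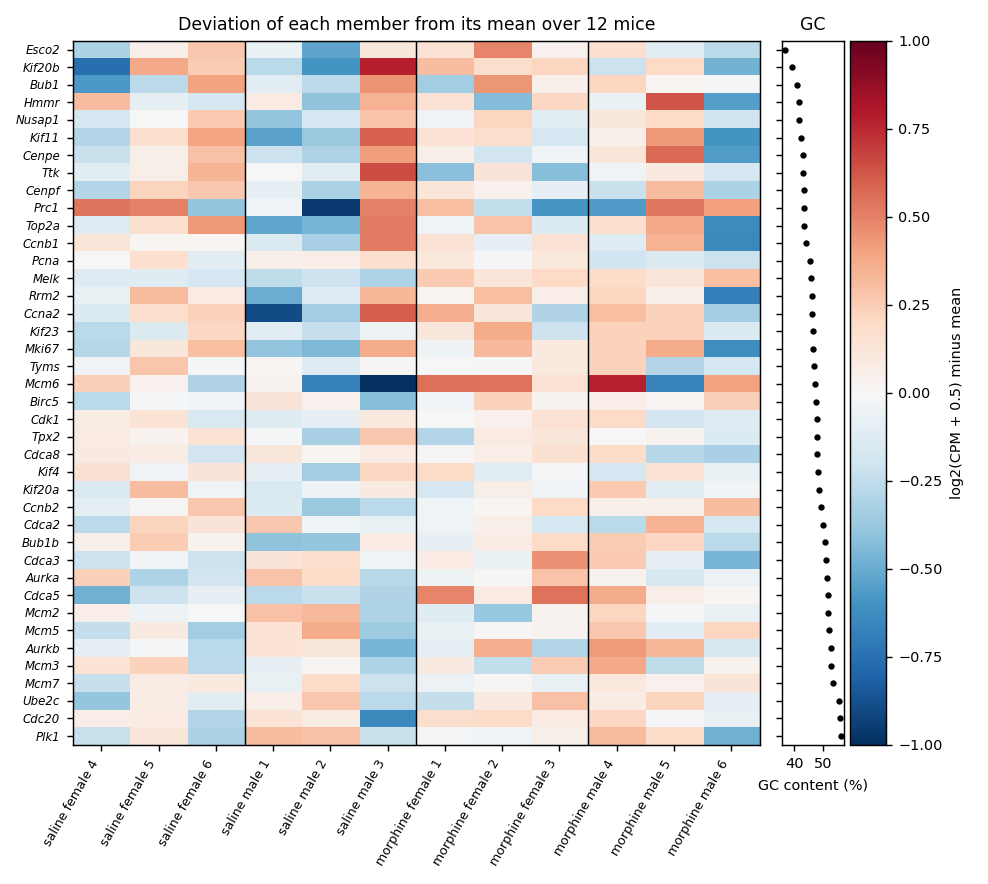
Deviation of each member from its mean over 12 mice, as log2(CPM + 0.5), with libraries as columns by group and genes as rows from low (top) to high GC content of the longest transcript (right panel, in percent). Saline male 3 is red at the top and blue at the bottom, and saline male 2 shows the opposite order.

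Other cell cycle genes were listed by function, though with earlier results of these data known. The study already names *Cdk2* and *Rfc5*, both on this list, among its DE genes. Of 125 tested in the sex-combined comparison, 1 met the DE rule, where 1.19% of all genes did, 56 were higher and 69 lower, and their median was -0.01. The gene that met it was *Cdk2*, the kinase of S-phase entry, at 6.51 ± 0.806 CPM in saline and 7.84 ± 0.756 CPM in morphine mice (SD, n = 6; log2 difference 0.27, SE 0.12, adjusted p = 1.00 by edgeR's quasi-likelihood test), and with DESeq2 size factors 0 of 125 met it. Other genes of the cohesin complex, its loader and its regulators gave 0 of 12 past the rule and a median of -0.01. Condensin genes gave 0 of 8, and replication genes 0 of 35. In females 2 of 124 met the rule (1.81% of all genes), the polymerase subunit *Pold1* (0.58, SE 0.26) and the securin gene *Pttg1* (-0.63, SE 0.21). In males 1 of 125 did (2.99% of all genes), the CDK inhibitor *Cdkn1c* (-0.58, SE 0.19). Of the 6 CDK inhibitors tested, 6 had a negative log2 difference in males, and 5 with scaling by total counts, where 11332 of all 18166 genes tested were below 0 in males, and 6980 with scaling by total counts. The interaction met the rule for 2 of 125 (2.94% of all genes), *Pttg1* (1.02, SE 0.32) and the replication licensing inhibitor *Gmnn* (-0.57, SE 0.24), with adjusted p = 0.985 for both by edgeR. Between males and females 2 of 125 met it (3.94% of all genes), the clamp loader subunit *Rfc4* (-0.39, SE 0.14) and the flap endonuclease *Fen1* (1.34, SE 0.60), with adjusted p = 0.734 for both by edgeR.

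Marker genes of the cells that could carry these transcripts are given beside the members, as summed CPM. Oligodendrocyte precursors are the main dividing cells of this tissue. Their 6 markers summed to between 806 and 938 CPM in saline and between 743 and 947 CPM in morphine mice. *Ptprz1* was the largest part of the sum, which conceals opposite differences between mice. Saline males 2 and 3 had 365 and 604 CPM of *Ptprz1*, but 30.6 and 8.13 CPM of *Cspg4*. In the interaction 2 of 6 met the DE rule, both below 0 (median of the 6, -0.44), where 2.94% of all genes did. In males alone 1 of 6 did, *Olig2*, a lineage transcription factor (-0.45, SE 0.17), where 2.99% of all genes did. The sex-combined comparison had 0 of 6, where 1.19% of all genes met the rule. For committed precursors the ranges were 1196 to 1362 and 1109 to 1352 CPM (0 of 5), and for microglia 214 to 292 and 223 to 269 CPM (0 of 8). Markers of cerebellar granule cell precursors, which divide in the second postnatal week, summed to between 92.1 and 134 CPM in saline and between 103 and 142 CPM in morphine mice (0 of 5 tested). Most of that sum was *Zic1* (59.4 to 98.6 CPM), while the precursor marker *Atoh1* was at 0 to 0.0612 CPM in every library. The sum is thus no measure of dividing precursors. Markers of mature granule cells ranged from 19.1 to 39.4 and from 29.2 to 77.1 CPM, the highest value being that of morphine male 5. Of these, 3 of 4 (*Gabra6*, *Cbln3* and *Fat2*) met the rule as higher in morphine mice. Neutrophil markers ranged from 4.25 to 13.6 and from 2.19 to 7.30 CPM, with *S100a8* (-1.30) and *S100a9* (-1.08) meeting the rule as lower. Markers of neural progenitors and ependyma ranged from 135 to 168 and from 121 to 145 CPM, with 6 of 6 below 0 and 0 of 6 meeting the rule. Meningeal fibroblast markers ranged from 140 to 231 and from 90.4 to 196 CPM, with 1 of 6, *Dcn* (-0.49), meeting it. In females alone 3 of 6 meningeal markers met it as lower (median of the 6, -0.61) and so did 3 of 4 neutrophil markers tested (median -1.47). Of all genes, 1.81% met the rule in females. Mature granule cell markers met it for 3 of 4 in males (median 0.94), 0 of 4 in females (median 0.35) and 1 of 4 in the interaction. The part of these cells in the members' values was not tested.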

How the data were processed

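Brainstem RNA of 12 mice was sequenced as poly(A) libraries (100-base single-end reads). The authors trimmed the reads (Trimmomatic), aligned them to mm10 (STAR) and counted reads over exons of an Ensembl GRCm38 annotation (featureCounts), and deposited the raw counts per gene. Versions and strand setting were not given in the sources used here, so counts of overlapping genes are uncertain. Genes were filtered with filterByExpr, scaled by TMM and tested with edgeR 4.0.16 (quasi-likelihood, R 4.3.3), with Benjamini-Hochberg adjustment over all genes tested. In the comparison over both sexes, sex was a term of the model; each sex was also fitted alone, and the interaction and the sex difference came from all 12 mice. The study's own test, edgeR's exactTest, was run as an alternative. The DE rule was unadjusted p under 0.05 and log2 fold change beyond 0.26. SEs and 95% intervals were derived from the test's p and degrees of freedom. CPM used TMM-scaled totals, and CPM per kb used exon unions of GENCODE M21. Named genes were *Cdca5*, *Melk*, the highest and the most changed member per class, and every gene meeting the DE rule. Members, lists and tests were chosen with earlier results of these data known. Alternatives were DESeq2 1.42.0, exactTest, other scalings and filters, a replicate block, a GC offset and leaving out each mouse. The fits were tested on simulated data. Replicate libraries differed by more than sampling noise (chi-square per degree of freedom at least 12.5), so each counted as 1 replicate. Each mouse is 1 animal, but litters are not given in the labels.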

Additional observations from a re-analysis of the deposited data

Results flagged for a closer look

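In 80 groups of 6 mice (40 members, saline and morphine), 3 had a single mouse far from the other 5, where chance flags about 1 in 20 groups. *Cdca8*, a subunit of the chromosomal passenger complex, was at 1.08 CPM in saline female 6, and the nearest other saline mouse was at 1.34 CPM. *Rrm2* was at 2.13 CPM in the library labelled morphine male 6, against 3.82 CPM for the nearest other morphine mouse, and the 19 low-GC members other than *Pcna* summed to 56.0 CPM in this library, the lowest of the 6 morphine mice. Its part in the value was not tested. *Tyms* was at 3.61 CPM in saline female 5, against 2.94 CPM for the nearest other saline mouse.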

How the results depend on the processing

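No pairing by replicate number was seen: deviations of same-numbered saline and morphine mice correlated between -0.47 and 0.21 over the 6 numbers, and 0 of the 6 mice correlated best with their own number. Same-numbered saline and morphine mice were always of opposite sex. Both treatments were given within litters, so mice of both treatments may share a litter. No label gives the dam, so litter could not be a term of the fits. With the replicate block beside sex, 3 members met the DE rule in the sex-combined comparison and their median was 0.04. Over the settings tried, *Cdca5* and *Melk* met the rule in every sex-combined fit, with 3 members by every setting on all 12 mice and 2 to 4 in the fits without 1 mouse. In males, the members meeting the rule were 1 with DESeq2, 0 with no filter on low counts and 5 with the contrast from the fit of all 12 mice, where *Mcm6* and *Ccnb2* were added. Their median was 0.15 with scaling by total counts. In the interaction, *Pcna* as 1 member met the rule with DESeq2, with DESeq2 size factors and with the GC offset, which was added after seeing the data (-0.41). Leaving out 1 mouse moved the number of members meeting the rule, though not always the same members, to between 1 and 2 in females, 0 and 3 in males, 0 and 1 in the interaction and 0 and 2 between males and females. The median moved to between -0.065 and 0.19 in males and between -0.043 and 0.14 in the interaction. The causes were not tested. Over all genes, 221 met the rule in the sex-combined comparison, against 754 with no filter on low counts, 458 without saline male 3, 417 without saline female 6 and 393 without morphine female 3. Without saline male 3, 5341 of all genes met the rule in males, against 543, and 4695 in the interaction, against 559. In those fits *Ccna2* (males) and *Pcna* (interaction) also met it, and nothing about the members is read from that. Depth limits the low members: *Cdca5* and *Melk* rest on 10 to 39 reads per library, which counting error alone spreads by 17.4% to 25.5% within a group.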
